A study of Mus musculus with 12 samples.

Results

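The report concerns 41 genes of DNA replication and S phase, given as a list of symbols and found by symbol in the deposited tables, all 41 of them among 35869 genes. Every one passed the low-count filter, and the lowest count of any of them in any library was 788 reads (E2f2). The cells were haematopoietic stem cells (HSCs) from the bone marrow of mice, which a sorter split into a CD41-positive (CD41pos) and a CD41-negative (CD41neg) gate before RNA-seq. CD41 is the integrin chain encoded by Itga2b, found on megakaryocytes, platelets and some stem cells. All mice were RUNX1f/f, with both alleles of the blood transcription factor RUNX1 floxed. The knockout (KO) mice were MxCre1+/- and the controls (WT) MxCre1-/-. Poly(I:C), an interferon inducer that switches on the Cre driver, was given as 4 injections to WT and KO mice alike, and cells were taken 4 weeks after injection. MxCre1 is active in many tissues, so deletion was not limited to stem cells, and an effect of Cre itself cannot be told apart from loss of RUNX1. The groups were CD41pos WT (libraries 1, 3 and 4), CD41neg WT (2, 3 and 4), CD41pos KO and CD41neg KO (1, 2 and 3 each).

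A replication origin is licensed before S phase, when the origin recognition complex with Cdc6 and Cdt1 loads the MCM2-7 helicase onto DNA. Mcm10, Cdc45 and the GINS complex then turn the loaded helicase into a moving fork, where polymerase alpha with primase starts each strand and polymerases delta and epsilon extend it. Most of these genes are transcribed near the G1 to S transition under E2F factors, and most adult HSCs rest outside the cycle.

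Total counts ran from 44108035 to 58946457 per library, and 21973 to 27097 genes had a count. Runx1 itself was at 141 to 159 CPM (library-size scaled counts with TMM factors) in CD41pos WT, 65.7 to 90.5 in CD41neg WT, 270 to 382 in CD41pos KO and 157 to 171 in CD41neg KO. A count over the whole gene includes exons outside a floxed part, so it does not check the deletion. Stem cell markers were found in every library, with Kit at 184 to 1044 CPM and Mecom at 21.0 to 101 CPM. In CD41neg KO, library 2 was below 1 and 3 for Procr (17.0 CPM beside 73.3 and 73.0) and Hlf (70.4 beside 237 and 234). Mecom was lowest there too, while Slamf1 was higher (92.5 beside 62.6 and 66.0). The median log2 deviation of the 41 members from their mean over all libraries was 0.05 in that library, beside -0.06 and -0.18. A link was not tested. Itga2b was higher in every CD41pos library (551 to 1268 CPM) than in any CD41neg library (49.6 to 270). The 4 WT libraries numbered up to 6 in the labels (CD41pos WT 1 and 4, CD41neg WT 2 and 4) stood apart: the immediate-early gene Nr4a1 was at 18.6 to 27.7 CPM in them and at 237 to 396 in the other 8 libraries. Those numbers also place every WT library before every KO library, so an order of handling and genotype cannot be told apart. The labels do not say that each number is a separate mouse, so p-values measure the spread between these samples, which may be technical.

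In CD41pos HSCs, 13 of the 41 replication genes were higher in KO than in WT and none was lower (edgeR's quasi-likelihood test, Benjamini-Hochberg adjusted p under 0.05 over 19395 genes). Of all genes tested, 9.79% were called higher and 7.27% lower. The 13 were Orc1, Cdc6, Mcm2, Mcm3, Mcm4, Mcm6, Mcm10, Gins3, Pola1, Pole, Rpa1, Rrm1 and Ccne2, with log2 fold changes from 0.36 (Mcm3) to 1.11 (Pole). The median over all 41 was a log2 change of 0.07, beside -0.08 over all genes tested, with 25 positive and 16 negative. All 3 KO libraries lay above all 3 WT libraries for 20 members and below them for 3 (Cdt1, Pold1 and Uhrf1), where 21.9% and 22.4% of all genes did so. Without CD41pos KO 1, 2 or 3 the number called was 7, 6 or 7, and with the replicate number as a block it was 5. Calls over all genes fell too, from 3309 to 1580, 965 or 1175 and, with the block, to 957. The block joins WT and KO libraries of the same number, which the labels do not link. In bulk RNA, more cells in S phase and more RNA per cell cannot be told apart.

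Within CD41neg HSCs 1 member was higher in KO (Pola1) and 2 were lower (Pold1 and Pif1), where 3.85% and 3.97% of all genes were called. The median log2 change was 0.04, beside -0.03 over all genes tested. KO libraries lay above WT libraries for 10 members (18.5% of all genes) and below for 3 (17% of all genes). The number called was 12 without CD41pos WT 3 and 5 without CD41neg WT 3, each left out alone, where 3856 and 1145 of all genes were called, beside 1517 in the fit of all 12 libraries. CD41pos WT 3 is in neither group compared here and acts only through the spread, filter and scaling that the groups share in the fit. Across both gates, 20 members had a positive and 12 a negative log2 change in each. The genotype comparisons of the gates use different libraries, although the KO libraries of a number resemble each other across gates.

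**Figure D1:**
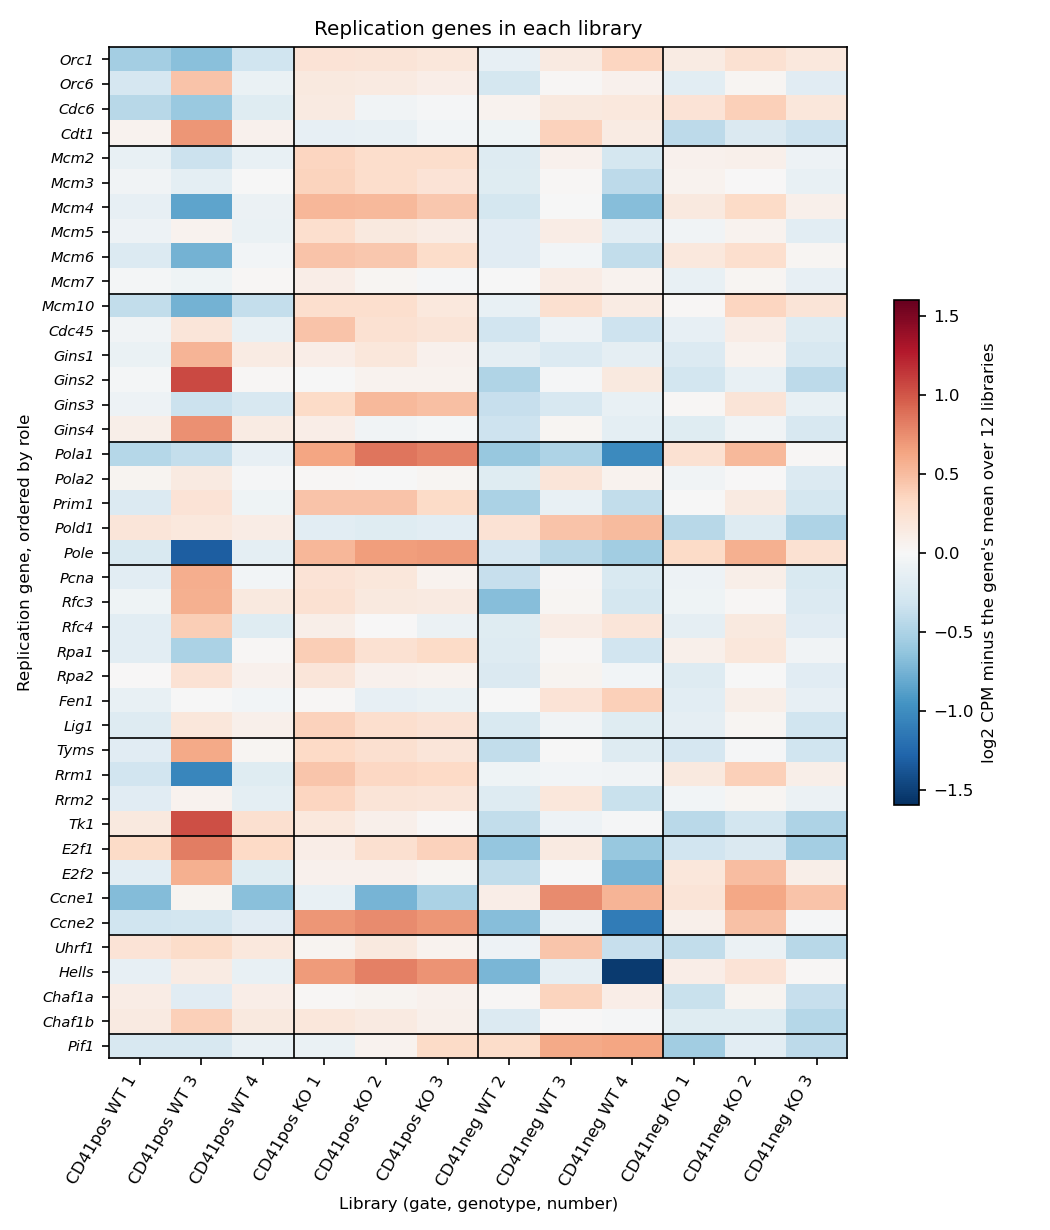
Level of each of the 41 replication genes (rows, in groups by role) in each of 12 libraries (columns), as log2 CPM minus the gene's mean over all libraries, with red above and blue below that mean. The CD41pos KO columns are mostly red, while CD41pos WT 3 is deep blue for Pole and Rrm1 and deep red for Gins2 and Tk1.

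Promoters of members that rose in CD41pos KO are shown because replication genes are known as E2F targets. RefSeq promoter windows (GRCm38.p6) matched 34 of the 41 members, and the 250 bases before each start were searched on both strands for the E2F letters, which were TTCCCGC together with TTGGCGC as well as TTCGCGC and finally TTGCCGC, with overlapping matches merged. A match stood before 17 of 34 members (50%), beside 9.01% of 27025 genes and 7.89% of all 32851 promoters. Among members higher in CD41pos KO 6 of 10 held a match, and among those not called 11 of 24 did. The CCAAT box, a promoter element, was found in 21 of 34 members (61.8%) and in 37.5% of genes, and in 9 of 10 called and 12 of 24 not called. E2F letters stood before 40% of 50 other replication genes and 20% of 25 mitosis genes, and a CCAAT box before 52% and 80%. Windows of 4 members that do not reach into a GENCODE transcript follow, 5′ to 3′ on the gene's strand, with E2F matches on either strand in capitals. They are Pola1 (chrX:93632156-93632405, minus strand), Mcm6 (chr1:128359706-128359955, minus strand), Rrm1 (chr7:102441445-102441694, plus strand) and, with no match, Mcm10 (chr2:5012792-5013041, minus strand).
Pola1: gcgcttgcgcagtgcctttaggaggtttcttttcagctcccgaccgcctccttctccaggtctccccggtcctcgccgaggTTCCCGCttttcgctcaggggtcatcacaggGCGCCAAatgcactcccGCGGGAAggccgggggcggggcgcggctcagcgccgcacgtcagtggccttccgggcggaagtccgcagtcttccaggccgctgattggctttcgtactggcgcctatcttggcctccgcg
Mcm6: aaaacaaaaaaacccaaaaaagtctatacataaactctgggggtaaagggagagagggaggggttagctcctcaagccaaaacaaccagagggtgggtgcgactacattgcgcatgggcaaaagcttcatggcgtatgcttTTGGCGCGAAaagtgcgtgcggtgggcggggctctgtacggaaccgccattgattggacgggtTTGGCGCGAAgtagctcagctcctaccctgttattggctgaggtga
Rrm1: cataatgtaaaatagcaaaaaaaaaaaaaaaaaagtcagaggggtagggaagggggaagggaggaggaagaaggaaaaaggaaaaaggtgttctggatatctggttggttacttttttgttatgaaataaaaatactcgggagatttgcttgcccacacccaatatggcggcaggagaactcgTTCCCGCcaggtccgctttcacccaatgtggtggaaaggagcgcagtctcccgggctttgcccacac
Mcm10: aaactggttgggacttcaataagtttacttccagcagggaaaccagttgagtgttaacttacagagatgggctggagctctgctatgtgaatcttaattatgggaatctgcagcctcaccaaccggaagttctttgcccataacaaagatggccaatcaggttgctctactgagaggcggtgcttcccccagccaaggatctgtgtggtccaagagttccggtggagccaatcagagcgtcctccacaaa
Pola1 had 3 separate matches, centred 166, 135 and 118 bases before the start, Mcm6 had 2 merged stretches and Rrm1 had 1 match, 64 bases before it. Mcm10 rose in CD41pos KO without any of these letters in its window, and Hells, with 2 stretches, did not pass the test. A match is a run of letters and no measure of binding.

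Among the licensing genes, Orc1, the large ATPase subunit of the origin recognition complex (GRCm38 chromosome 4, 108579423 to 108614833), was at 24.3, 22.2 and 28.5 CPM in CD41pos WT and at 41.5, 41.1 and 40.3 in CD41pos KO. These groups did not overlap, and the log2 change was 0.71 ± 0.15 (SE, adjusted p = 0.0107). CD41neg WT held 32.5, 39.2 and 45.3 CPM and CD41neg KO 38.8, 42.2 and 40.1, so that only CD41pos WT stood low. CD41pos was below CD41neg in WT (log2 change -0.64 ± 0.15, adjusted p = 0.0299), and the value in KO was 0.02 ± 0.15. Cdc6, which helps load the helicase, showed a like order at 96.6, 86.9 and 114 CPM in CD41pos WT and 145, 126 and 130 in CD41pos KO (log2 change 0.43 ± 0.12, adjusted p = 0.0332). Its CD41neg levels were 136, 146 and 148 CPM in WT, overlapping CD41pos KO, and 153, 170 and 149 in KO, and its gate difference in WT was -0.53 ± 0.12 (adjusted p = 0.0276). The call of Cdc6 for KO against WT in CD41pos was lost under 12 of 26 other settings. Cdt1, the second loading factor, gave 138, 216 and 139 CPM in CD41pos WT against 121, 121 and 128 in KO, and 126, 170 and 144 CPM in CD41neg WT against 98.9, 112 and 105 in KO. KO lay below WT without overlap in each gate, but neither change passed (-0.41 ± 0.17, adjusted p = 0.114, and -0.48 ± 0.17, adjusted p = 0.106). Orc6, the smallest subunit, had no call in any comparison.

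Of the 6 subunits of the MCM2-7 helicase, which unwinds DNA ahead of the fork, 4 rose in CD41pos KO and Mcm5 and Mcm7 did not pass. Mcm6 (chromosome 1, 128331590 to 128359664) was at 657, 455 and 745 CPM in CD41pos WT and at 1048, 1030 and 941 in CD41pos KO (log2 change 0.70 ± 0.16, adjusted p = 0.0145). Mcm4 was at 271, 166 and 278 CPM against 428, 425 and 400 (0.81 ± 0.20, adjusted p = 0.0187), and Mcm2 at 508, 436 and 509 against 701, 671 and 668 (0.49 ± 0.11, adjusted p = 0.0149). For all 3 the lowest WT value was that of library 3. Mcm3 had the smallest change of the 4 (0.36 ± 0.12, adjusted p = 0.0495), and this call was lost under 18 of 26 other settings. Mcm5 and Mcm7 had log2 changes of 0.22 and 0.07. In CD41neg, Mcm4 was at 244, 294 and 184 CPM in WT and 331, 368 and 314 in KO, and Mcm6 at 675, 744 and 585 in WT and 865, 922 and 781 in KO. Neither set overlapped, yet the changes of 0.49 ± 0.20 (adjusted p = 0.142) and 0.36 ± 0.16 (adjusted p = 0.179) did not pass.

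Mcm10, which binds the loaded helicase and is needed for its activation, was at 77.7, 60.4 and 78.5 CPM in CD41pos WT and 123, 123 and 115 in CD41pos KO (log2 change 0.73 ± 0.14, adjusted p = 0.00743). Its CD41neg values, 93.9, 121 and 111 CPM in WT and 103, 129 and 117 in KO, spread over the range of CD41pos KO, and CD41pos WT lay below CD41neg WT (-0.59 ± 0.14, adjusted p = 0.0314). Like Orc1 and Cdc6, it was thus low in CD41pos WT alone. For none of these genes did the genotype change differ between gates in edgeR's test (adjusted p = 0.735 to 0.894). Each of their gate calls in WT was lost under 13 of 27 other settings. Gins3, a GINS subunit, was at 31.6, 26.4 and 27.9 CPM in CD41pos WT and 41.4, 47.8 and 46.6 in KO (0.66 ± 0.14, adjusted p = 0.0118). The other GINS subunits did not share this change: Gins1 had a log2 change of -0.09, Gins2 of -0.40 and Gins4 of -0.34, none past the test. CD41pos WT 3 was the highest library for Gins2, at 124 CPM beside 58.1 and 59.9 in the other 2 of its group, and likewise for Gins1 and Gins4. Cdc45, the helicase's other partner, had a change of 0.29 ± 0.14 (adjusted p = 0.145), with KO above WT in all 3 libraries.

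Among the polymerases, Pola1, the catalytic subunit of polymerase alpha (chromosome X, 93304767 to 93632155), was the only member that edgeR called higher in KO in both gates in the fit of all 12 libraries. It was at 81.0, 85.5 and 102 CPM in CD41pos WT, 173, 202 and 195 in CD41pos KO, 72.9, 78.9 and 55.1 in CD41neg WT and 132, 160 and 113 in CD41neg KO. Its log2 change in CD41pos was 1.08 ± 0.17 (adjusted p = 0.00324). The CD41neg value was 0.97 ± 0.17 (adjusted p = 0.00835). The X-linked Pola1 was called with a term for Y-linked expression too, added because the libraries were of mixed sex in a way that went with genotype. Xist, expressed from the inactive X of females, was at 113 to 339 CPM in every WT library, at 308 to 318 in KO 2 and at most 1.00 in KO 1 and 3, and the Y-linked Ddx3y was at 11.2 to 38.9 CPM in 4 of 6 WT libraries that also held Xist. Pole, the catalytic subunit of polymerase epsilon, which makes the leading strand (chromosome 5, 110286306 to 110337474), was at 84.0, 39.8 and 89.8 CPM in CD41pos WT and 144, 159 and 160 in KO. Its change of 1.11 ± 0.24 (adjusted p = 0.0109) was 0.84 with WT 3 of both gates left out, and it was still called. In CD41neg it was at 82.4, 73.1 and 67.8 CPM in WT and 123, 148 and 118 in KO (0.80 ± 0.24, adjusted p = 0.0583).

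Pold1, the catalytic subunit of polymerase delta, which makes the lagging strand, went the other way (chromosome 7, 44532746 to 44548849). In CD41neg it was at 375, 441 and 456 CPM in WT and at 236, 278 and 228 in KO, a log2 change of -0.78 ± 0.11 (adjusted p = 0.00357). In CD41pos the levels were 368, 359 and 348 CPM in WT and 286, 280 and 286 in KO, without overlap, and the change of -0.34 ± 0.11 just missed the threshold (adjusted p = 0.0524). Pold2, the second delta subunit and no member of the 41, was lower in both gates, at -1.04 ± 0.20 (adjusted p = 0.00796) and -1.09 ± 0.21 (adjusted p = 0.0113). Prim1, the primase, had changes of 0.42 and 0.29 that did not pass, and Pola2, the regulatory alpha subunit, of -0.04 and -0.12.

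**Figure D2:**
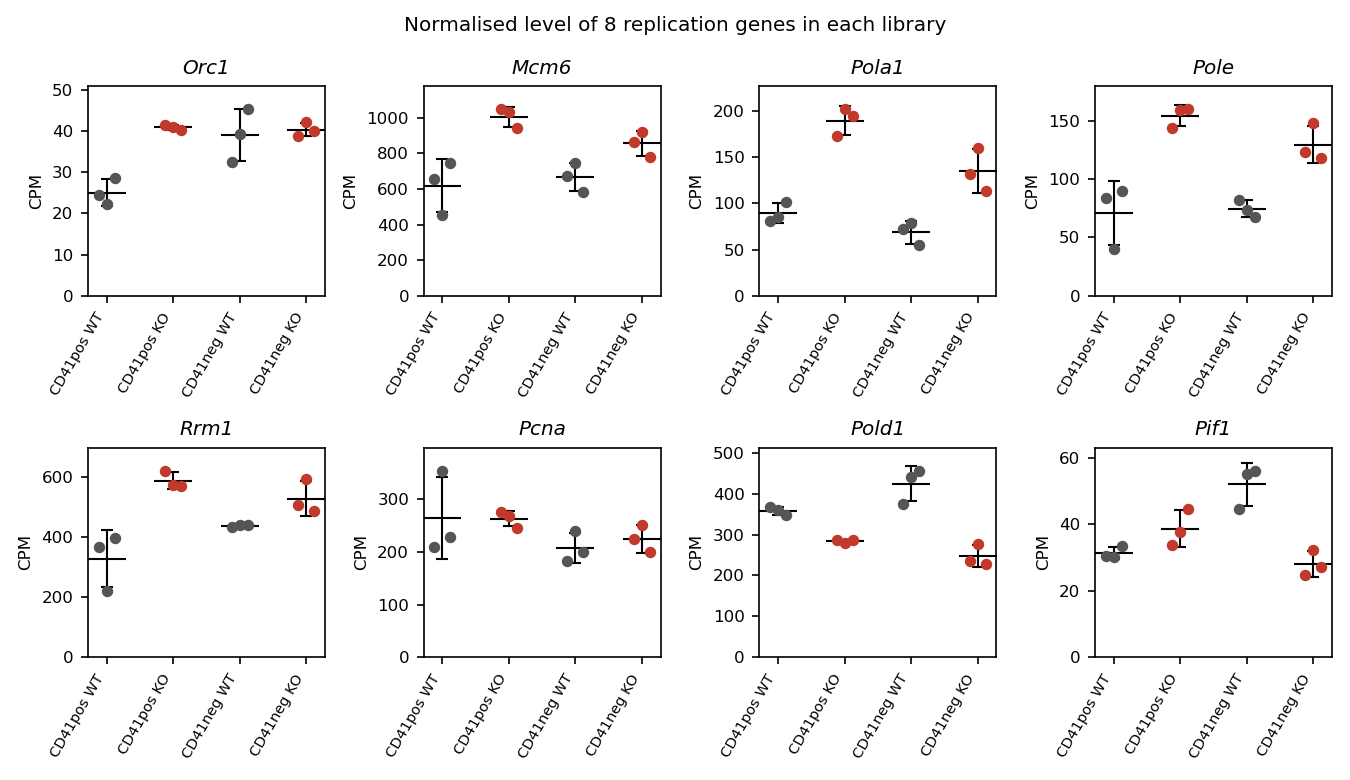
CPM of 8 replication genes in every library, each point 1 library, with the group mean and SD (n = 3). Orc1, Mcm6, Pola1, Pole and Rrm1 are higher in CD41pos KO than in CD41pos WT, Pcna overlaps, Pold1 is lower in CD41neg KO, and Pif1 has its highest mean in CD41neg WT.

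The clamp, its loader, the single-strand binding protein RPA and the enzymes that join Okazaki fragments come next. Of these 7 genes only Rpa1, the large RPA subunit, was called in CD41pos, at 232, 183 and 263 CPM in WT and 342, 308 and 322 in KO (log2 change 0.52 ± 0.14, adjusted p = 0.0272). This call was lost under 10 of 26 other settings. Pcna, the sliding clamp often used as a proliferation marker, was at 209, 354 and 229 CPM in CD41pos WT and 275, 269 and 246 in KO, which overlapped, and its change was -0.00 ± 0.18. Fen1, which cuts flaps, and Lig1, the ligase that seals nicks, had changes of -0.02 ± 0.12 and 0.27 ± 0.13. Lig1 was at 211, 275 and 256 CPM in CD41pos WT and at 315, 293 and 285 in KO, and Fen1 at 292, 316 and 308 against 320, 288 and 293. In CD41neg Fen1 was at 316, 369 and 412 CPM in WT and 281, 337 and 289 in KO (-0.27 ± 0.12, adjusted p = 0.168). Rfc3 and Rfc4, of the clamp loader, and Rpa2 had changes between -0.10 and 0.19 over both gates.

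Rrm1 and Rrm2 encode the large and small subunit of ribonucleotide reductase, which makes the deoxynucleotides. Rrm1 was at 366, 220 and 397 CPM in CD41pos WT and at 619, 573 and 568 in CD41pos KO (log2 change 0.84 ± 0.18, adjusted p = 0.0104). In CD41neg it was at 433, 440 and 439 CPM in WT and 505, 592 and 484 in KO, without overlap, and the change of 0.27 ± 0.18 did not pass (adjusted p = 0.353). Rrm2 was at 225, 264 and 229 CPM in CD41pos WT and 324, 295 and 292 in KO (0.34 ± 0.14, adjusted p = 0.0946). Tyms and Tk1, of thymidylate synthesis, had changes of 0.07 and -0.44 that did not pass, and CD41pos WT 3 was their highest library (259 CPM for Tyms and 290 for Tk1).

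Of the regulators of S-phase entry, Ccne2, one of the E-type cyclins that activate Cdk2, was at 45.3, 46.4 and 49.9 CPM in CD41pos WT and 92.2, 95.8 and 92.7 in KO (log2 change 0.99 ± 0.22, adjusted p = 0.0121). Ccne2 in CD41neg was at 35.2, 52.9 and 26.0 CPM in WT and 59.8, 78.5 and 55.8 in KO, and its change of 0.77 ± 0.22 just missed the threshold (adjusted p = 0.0500463). Ccne1, its paralogue, had changes of -0.04 and -0.06. E2f1, an activating E2F, was higher in CD41pos than in CD41neg in WT (0.83 ± 0.21, adjusted p = 0.0417), at 114, 163 and 115 CPM in CD41pos WT against 59.9, 101 and 60.4 in CD41neg WT. Its genotype changes were -0.26 ± 0.21 and -0.04 ± 0.21, so that E2f1 was not called with the members that rose. E2f2, another activating E2F, had changes of -0.06 and 0.62, neither past the test.

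In the group for chromatin assembly, none of 4 genes passed in either gate. Hells, a chromatin remodeller, was at 70.7, 84.7 and 71.4 CPM in CD41pos WT and 125, 135 and 127 in KO, and at 46.7, 70.1 and 26.8 CPM in CD41neg WT and 83.2, 90.4 and 78.3 in KO. Neither pair of groups overlapped, and the changes of 0.77 ± 0.25 (adjusted p = 0.0526) and 0.81 ± 0.25 (adjusted p = 0.0663) missed the threshold. Uhrf1, which brings maintenance methylation to new DNA, was at 314, 333 and 305 CPM in CD41pos WT and 280, 301 and 281 in KO (-0.14 ± 0.17), and at 255, 367 and 210 against 206, 253 and 199 in CD41neg (-0.34 ± 0.17). Chaf1a and Chaf1b, subunits of the histone chaperone CAF-1, had changes of 0.02 and -0.09 in CD41pos and of -0.39 and -0.20 in CD41neg.

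Pif1, a helicase that unwinds G-quadruplexes (chromosome 9, 65587160 to 65595967), had the smallest p of the 41 for a difference between gates in the genotype change. It was at 30.3, 30.2 and 33.3 CPM in CD41pos WT, 33.7, 37.6 and 44.7 in CD41pos KO, 44.5, 55.2 and 56.0 in CD41neg WT and 24.7, 32.3 and 27.2 in CD41neg KO. CD41neg WT had the highest mean, and 1 CD41pos KO library (44.7) reached its lowest value. Pif1 was lower in CD41neg KO (-0.89 ± 0.16, adjusted p = 0.00969) and lower in CD41pos than in CD41neg in WT (-0.73 ± 0.16, adjusted p = 0.022). Its change in CD41pos was 0.30 ± 0.16 (adjusted p = 0.189). The difference of the genotype changes was 1.19 ± 0.23 (unadjusted p = 0.000177, adjusted p = 0.452 over all genes).

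**Figure D3:**
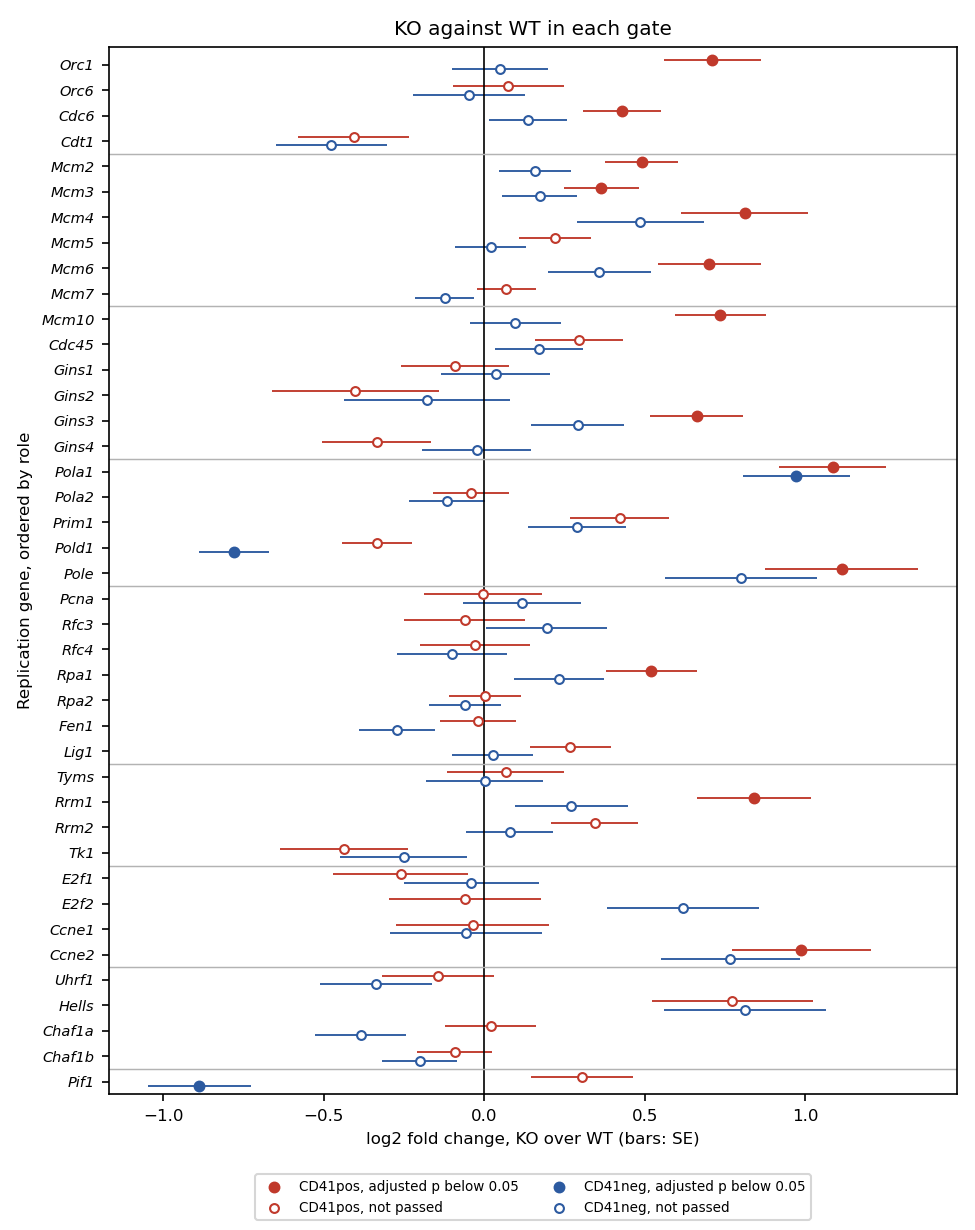
Log2 fold change of each replication gene, KO over WT, with SE bars, in the CD41pos (red) and CD41neg (blue) gate. Filled points passed an adjusted p of 0.05: 13 members in CD41pos, all to the right, and in CD41neg Pola1 to the right and Pold1 and Pif1 to the left.

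For no member did the genotype change differ between gates beyond the test, and no gene of all 19395 passed it (0%) under edgeR. Orc1, Mcm10, Pold1, Rrm1 and Pif1 had an unadjusted p under 0.05, as did 5.64% of all genes. DESeq2 called Pif1 and 0.128% of all genes in its direction. With limma-trend on log2(TPM + 1) no member was called, and 7 of all 19395 genes were. So the count of 13 in CD41pos beside 1 higher and 2 lower in CD41neg is not shown to be a difference between gates.

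Between gates within WT, E2f1 was higher in CD41pos, and Orc1, Cdc6, Mcm10 and Pif1 were lower, where 2.72% and 2.87% of all genes were called. Ccne1 missed by little (-0.89 ± 0.24, adjusted p = 0.0502), at 39.8, 66.4 and 40.3 CPM against 69.0, 109 and 94.1. These calls ended when only the WT groups entered the fit or when CD41neg WT 4 was left out. With CD41pos WT 1, CD41pos KO 3 or CD41neg KO 3 left out, 1 call was made. Calls over all genes fell too, from 1084 to 201 and 442, and to 684, 640 and 688. Without WT 3 of both gates E2f1 alone of these genes kept its call. That fit called 2 members higher and 1 lower, beside 2.72% and 3.45% of all genes. CD41pos lay above CD41neg for 7 members and below for 8 without overlap, where 11.4% of all genes did so each way.

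Within KO, 37 of 41 members had a positive log2 difference, CD41pos over CD41neg, with a median of 0.26 beside -0.02 over all genes tested. None passed edgeR's adjusted threshold in the fit of all 12 libraries, where 1.56% of all genes were called higher and 1.23% lower. An unadjusted p under 0.05 was reached by 16 members, and by 2615 of all 19395 genes. CD41pos lay above CD41neg without overlap for 27 members and below for 3 (Cdc6, E2f2 and Ccne1), where 15.7% and 14.1% of all genes did so. DESeq2 called Lig1 (0.44) and Chaf1b (0.42) higher and Ccne1 (-0.86) lower, where it called 2% and 1.69% of all genes. A fit of the 6 KO libraries alone took the KO number as a block, a pairing that the labels do not state. It called 15 members higher and 1 lower (Ccne1), where 6.56% and 5.81% of all genes were. With all 12 libraries and the number within each genotype as a block none was called, beside 0.5% and 0.304% of all genes. Over the settings run for the libraries that stood apart, length, sex, pairing and test, 36 to 38 of the 41 members were positive. Each of these fits used the same 6 KO libraries, so the signs could hardly change. The number called ran from 0 to 16.

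**Figure D4:**
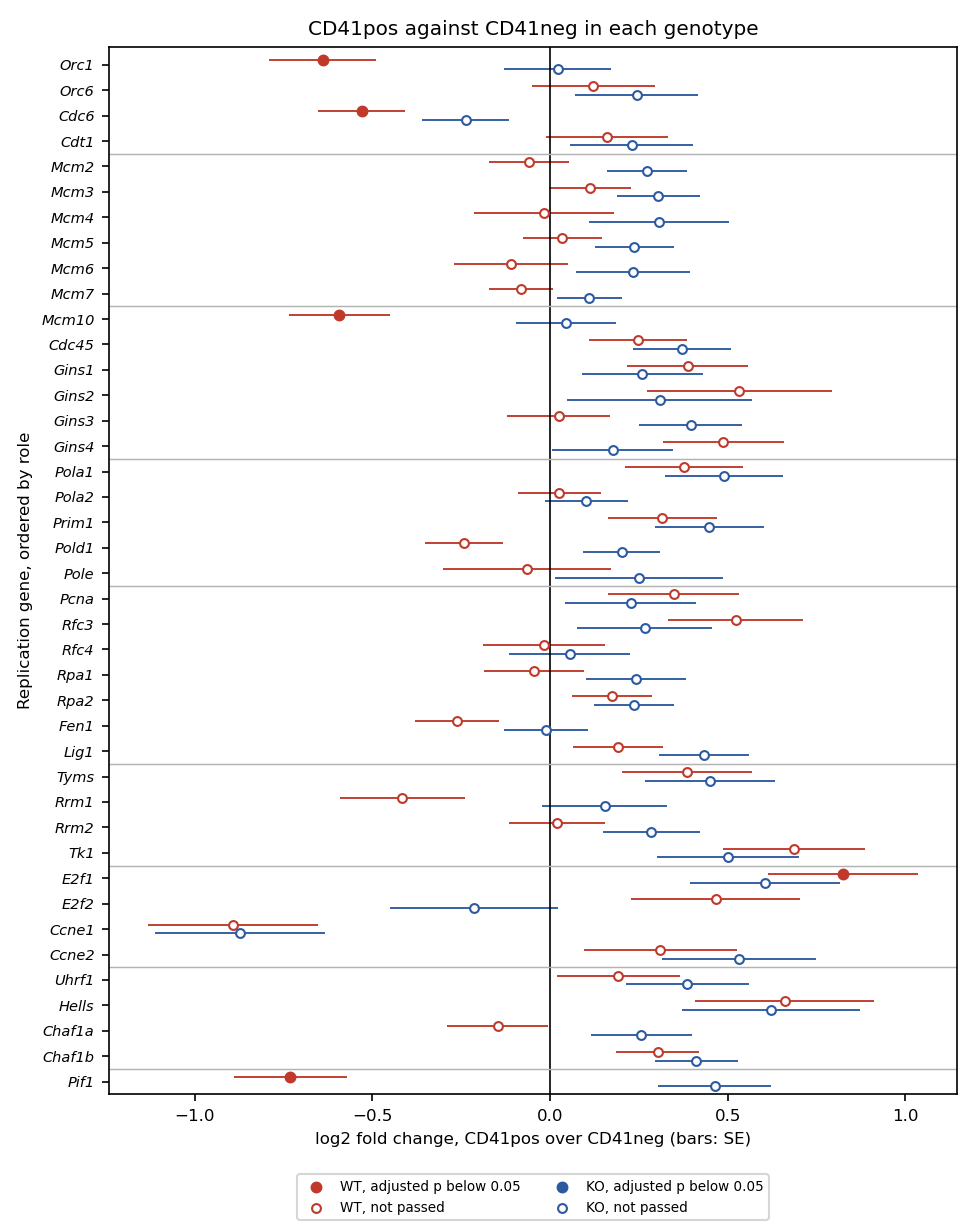
Log2 fold change of each replication gene, CD41pos over CD41neg, with SE bars, in WT (red) and KO (blue). Blue points lie to the right of 0 for 37 of 41 genes and none is filled, while E2f1, Orc1, Cdc6, Mcm10 and Pif1 are filled in WT.

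Beyond the 41, a list of 64 other replication genes gave 21 higher and 1 lower (Pold2) in CD41pos KO, with a median log2 change of 0.27, where 9.79% and 7.27% of all genes were called. Atad2, an E2F coactivator, went from 111, 84.5 and 145 CPM to 360, 410 and 375 (1.75 ± 0.23, adjusted p = 0.00201). Rbl1, a pocket protein that restrains E2F, rose by 0.95 ± 0.15, Topbp1, needed for origin firing, by 1.10 ± 0.18 and Ccna2, the S-phase cyclin A, by 0.60 ± 0.11. In CD41neg 2 were higher and 3 lower, among them Atad2 (1.16 ± 0.23) and Pold2, a share near that of all genes (3.85% and 3.97%). Of 28 genes of mitosis, 17 were higher and none lower in CD41pos KO (median log2 change 0.63), beside the same shares of all genes. Top2a, the topoisomerase of dividing cells, went from 305, 274 and 367 CPM to 668, 702 and 681 (1.12 ± 0.13), Mki67, the proliferation marker Ki-67, rose by 1.02 ± 0.13, Hmmr, a spindle protein, by 1.12 ± 0.17 and Ect2, of cytokinesis, by 1.65 ± 0.26. In CD41neg 3 were higher, Top2a (0.67 ± 0.13), Ect2 (0.97 ± 0.25) and Mki67 (0.50 ± 0.13), beside 3.85% of all genes. The difference between the lists was not tested.

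Transcript length moved with these changes. Over 9776 genes of at least 10 CPM, the CD41pos log2 change had a median of -0.46 for genes whose longest coding transcript is under 1500 bases and of 0.40 for those of 4000 bases or more, and in CD41neg of -0.25 and 0.27. Of the 13 members called in CD41pos, 7 lay from 2500 to under 4000 bases and 6 at 4000 or more, and none of the 16 shorter members was called. Of the 9776 genes in these classes, 15.9% and 32.6% were called higher, and 1.08% and 3.98% in the shorter classes (under 1500 and from 1500 to under 2500 bases). Across the 41 members Pearson's r of change and log2 length was 0.55 in CD41pos and 0.31 in CD41neg, beside 0.46 and 0.35 over the 9776 genes. These points share libraries and are not replicates. The median coding transcript was used first and gave 0.36 and 0.16 over the members. It was replaced after its value for Pole, 1523 bases against 7163 for the longest, was seen, a choice that raised the members' r.

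With an offset for length in each library, 14 members were higher in CD41pos and 1 lower (Pold1, -0.52), where 8.28% and 9.13% of all genes were called. Of the 14, 10 were among the 13. Cdc6, Mcm3 and Rpa1 lost their call, and Orc6, Cdc45, Prim1 and Rrm2 gained one. The same offset from the median transcript gave 11 higher and 1 lower (8.34% and 9.33% of all genes). Pola1 was 0.71 and Pole 0.72 with the longest transcript, beside 1.08 and 1.11 without an offset, and Pole was 1.27 with the median transcript. The median deviation of long genes was -0.52 in CD41pos WT 3, lower than in any other library (-0.20 to 0.21).

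**Figure D5:**
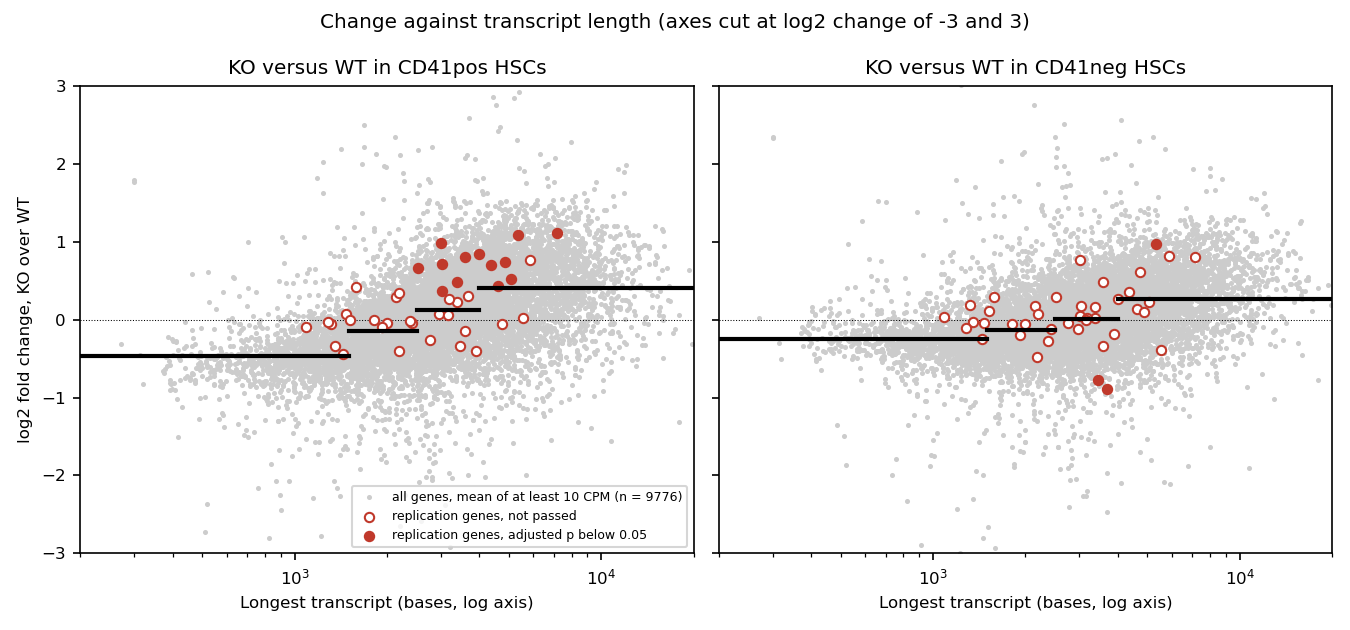
Log2 fold change, KO over WT, against the length of the longest coding transcript (log axis) in each gate, with all genes of at least 10 CPM in grey, replication genes in red (filled where called) and black bars for the median of all genes in 4 length classes. The bars climb from -0.46 to 0.40 in CD41pos, and the filled red points lie at 2500 bases or more.

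Markers of some other marrow cells moved with genotype as well. Of 8 erythroid markers, 1 was higher and 1 lower in KO in each gate. Of 6 megakaryocyte markers, 1 was lower in CD41pos KO and none was called in CD41neg. Of 8 granulocyte-monocyte progenitor markers, 6 were lower in KO in each gate, and their summed level was 5313 to 6659 CPM in CD41pos WT and 1835 to 4192 in CD41pos KO, and 1607 to 2792 in CD41neg WT and 462 to 1099 in CD41neg KO. All 4 stroma markers were lower in KO in each gate (summed 166 to 818 CPM in WT and 13.9 to 22.8 in KO), with Col1a1 under 1 CPM in every KO library. Of 5 basophil and mast cell markers, 3 were lower in each gate (summed 99.2 to 604 CPM in WT and 48.0 to 119 in KO), with Prss34 and Mcpt8 under 1 CPM in every KO library. The other 2 of that list, Cpa3 and Ms4a2, did not pass in either gate (log2 changes of 1.05 and 1.03 in CD41pos and of 1.03 and 0.49 in CD41neg). Of 5 B and plasma cell markers 1 was lower in each gate and none higher. The log2 change was positive for 1 of them in CD41pos and for 2 in CD41neg (up to 1.64), none past the test. The 5 markers were summed at 97.7 to 592 CPM in CD41pos WT and 15.7 to 55.3 in KO, and at 309 to 2920 and 70.8 to 149 in CD41neg. Of 4 T and NK cell markers 1 was lower in CD41pos, with no other call. Their sums were 226 to 297 CPM in CD41pos WT and 76.4 to 133 in KO, and 82.4 to 129 and 45.7 to 78.4 in CD41neg. Cd48, found on multipotent progenitors, was the only called of the 3 markers of those cells and was higher in both gates, at 54.8 to 75.7 CPM in CD41pos WT and 213 to 229 in KO (log2 change 1.82) and at 40.5 to 61.6 in CD41neg WT and 178 to 193 in KO (1.79). Among 9 stem cell markers Slamf1 was higher in both gates (31.4 to 56.1 CPM in CD41pos WT and 123 to 140 in KO, 21.4 to 28.2 in CD41neg WT and 62.6 to 92.5 in KO), Hoxb5 was lower in both (log2 changes of -1.37 and -1.01), and 7 did not pass in each gate. Between gates, megakaryocyte markers were summed at 580 to 643 CPM in CD41pos WT and 45.9 to 103 in CD41neg WT (5 of 6 called higher), and at 428 to 544 and 67.6 to 74.4 in KO (4 of 6). Erythroid markers ran the other way, at 1860 to 2565 CPM in CD41pos WT and 3999 to 5209 in CD41neg WT (6 of 8 called lower), and at 1400 to 2007 and 3275 to 3720 in KO (5 of 8). Granulocyte-monocyte progenitor markers were called higher in CD41pos than in CD41neg for 6 of 8 in WT and 4 of 8 in KO. The part of these cells in the changes of the replication genes was not tested.

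Results that rest on the WT libraries are given with and without those that stood apart. Without WT 3 of both gates, 16 members were higher and none lower in CD41pos, where 9.37% and 5.54% of all genes were called. In CD41neg 11 were higher and 3 lower (Cdt1, Pold1 and Pif1), and calls over all genes were more as well, at 11% and 8.43%. Without the 4 WT libraries, which leaves 1 WT library a gate whose spread is taken from the KO groups, 15 were higher and 5 lower in CD41pos (Cdt1, Gins2, Gins4, Tk1 and E2f1), beside 19.4% and 14.2% of all genes. That fit gave 2 higher (Pola1 and Pole) and 4 lower (Cdt1, Pold1, Uhrf1 and Pif1) in CD41neg, beside 4.11% and 3.34%. With a term for these 4 libraries, 11 were higher and 5 lower in CD41pos (the same 5 genes), beside 12.9% and 10.7% of all genes, and Pola1 and Pole were higher and Cdt1, Pold1 and Pif1 lower in CD41neg, beside 4.92% and 3.75%. In both fits the share of members lower in CD41pos was near that of all genes. Orc1, Mcm10, Pola1, Pole and Rrm1 kept their CD41pos call under all 26 alternatives run, and Pola1 and Pold1 kept their CD41neg call.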

How the data were processed

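RNA-seq of 12 libraries was analysed. Per the labels' protocols, RNA came from sorted cells by miRNeasy Micro and libraries from the SMART-Seq v4 kit, which does not mark strand, so reads of genes that overlap or run antisense are not separable. The submitters' processing notes name FastQC 0.11.7, cutadapt 1.9.1, STAR 2.6.1e, featureCounts 1.6.2 and mm10. The aligner's and counter's settings and annotation, not given in the sources used here, could change these values. Whole numbers of reads per gene (counts) and TPM values were deposited by the authors, and 27 gene names turned into dates were restored from the TPM table.

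Counts were fitted with edgeR 4.0.16 (R 4.3.3): filterByExpr, TMM, 4 group means over all 12 libraries, quasi-likelihood tests, Benjamini-Hochberg over 19395 genes, threshold 0.05, two-sided. The scripts were tested on simulated data. Alternatives used DESeq2 1.42.0 and limma 3.58.1 on log2(TPM + 1) and log2(TPM + 0.1). Replicate libraries differed by 14.8 to 259 times sampling noise (chi-square per degree of freedom). KO libraries of the same number correlated across gates (0.44, 0.62 and 0.51 over 10206 genes), while WT 3 and WT 4 gave 0.11 and -0.51. Libraries of unlike number also correlated, at 0.61 for CD41pos WT 4 with CD41neg WT 2 and 0.27 for KO 1 with KO 3. Other unlike KO pairs gave -0.54 to -0.43. Such values alone do not show that a number pairs the samples. Lengths and positions are from GENCODE vM21, promoters from RefSeq (GRCm38.p6). The length offset is a loess curve per library (span 0.5).

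Named genes, by rule: in each role group the 2 members of smallest adjusted p in CD41pos, the smallest in CD41neg, the smallest called between gates, and members that fell where most of their group rose. Of other lists, 4 and 2 were named. Positions are given for those that results turn on, chosen after values were seen, as were Nr4a1, Xist, Ddx3y and the markers named. The members and lists were chosen with earlier results of these data known.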

Additional observations from a re-analysis of the deposited data

How the results depend on the processing

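Of the 41 replication genes, the number called depended on the fit. KO against WT in CD41pos gave 13 in the reported fit, 5 with the replicate number as a block and 20 without the 4 WT libraries numbered up to 6. Leaving out 1 library gave 6 to 15, with 7, 6 and 7 without CD41pos KO 1, 2 and 3. KO against WT in CD41neg gave 3, and 6 with DESeq2, 5 with a mean of at least 1 CPM, 5 with the term for the 4 WT libraries, 6 without them, 14 without WT 3 of both gates, and 6 or 5 with the length offset (longest or median transcript). Leaving out 1 library gave 2 to 12, with 12 without CD41pos WT 3 and 5 without CD41neg WT 3. The replicate block by number called 2 there. Between gates in WT, 5 were called, and 0 with only the groups compared. The replicate block by number, or by number within genotype, also gave 0, although WT 3 and WT 4 had an r of 0.11 and -0.51 across gates. Limma on log2(TPM + 0.1) gave 3, the term 10 and the fit without WT 3 gave 3. Leaving out 1 library gave 0 to 5, with 0 without CD41neg WT 4 and 1 without CD41pos WT 1, CD41pos KO 3 or CD41neg KO 3. Between gates in KO, 0 were called, and 3 with DESeq2, 1 without a low-count filter, 11 with only the groups compared, 1 with limma on log2(TPM + 1) and 1 on log2(TPM + 0.1), 2 with the term, 14 without the 4 libraries, 6 without WT 3, 16 with the replicate block of the KO libraries alone, and 3 or 2 with the length offset. Leaving out 1 library gave 0 to 5, with 5 without CD41pos WT 3. In each comparison, a library outside the groups compared acts only through the spread, filter and scaling of the shared fit. The interaction gave 0, and 1 with DESeq2 and 0 when any 1 library was left out. The fit without the 4 libraries leaves 1 WT library a gate, so its counts between gates in WT and for the interaction are not given here. Calls over all genes moved with the setting too. They went from 3309 to 957 with the replicate number as a block in CD41pos, and from 1517 to 3923 without WT 3 in CD41neg. Between gates they went from 1084 to 201 in WT and from 541 to 1505 in KO with only the groups compared.

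No called member changed sign in any setting run. The settings for the 4 WT libraries, WT 3, Y-linked expression, length and the KO libraries alone were chosen after seeing the data, and so was the longest transcript in place of the median. Apart from the length offset and these WT libraries, the cause of the differences was not tested. With 3 libraries a group, small changes could not be told from spread.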
